A study of Homo sapiens with 6 samples.

Results

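Lipid droplets are the organelles in which liver cells store triglyceride, and the 10 genes described here encode proteins that coat these droplets, fuse them or control the breakdown of their fat. They were chosen by gene name from a count table of 58735 genes: the perilipins PLIN2, PLIN3, PLIN4 and PLIN5, the CIDE proteins CIDEB and CIDEC, the lipase PNPLA2, its activator ABHD5, and its inhibitors G0S2 and HILPDA. All 10 were in the table, and 9 passed the filter on low counts. CIDEB did not. The data are mRNA sequencing of HepaRG, a single human liver cell line whose progenitors mature in DMSO into cells resembling hepatocytes and bile duct cells. Libraries labelled PTPF (n = 3) were compared with libraries labelled STATF (n = 3), called PTPF and STATF libraries here after their labels alone. All of these cells had been differentiated in 1.8% DMSO, transfected with siRNA and, after 48 h, loaded for 24 h with 800 µM oleic and 400 µM palmitic acid. The siRNAs of the study were directed at PTPRD, a receptor-type tyrosine phosphatase, and at STAT3, a transcription factor of interleukin-6 signalling. The labels do not spell out PTPF and STATF, and neither libraries of cells given control siRNA nor libraries of cells without fatty acids were analysed here, so every value below describes fatty acid-loaded cells.

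Perilipins bind the droplet surface and regulate the access of lipases to the stored fat. PNPLA2, also called adipose triglyceride lipase, takes the first fatty acid off triglyceride, and it works at full rate only when ABHD5 binds it. PLIN5 can hold both proteins at the droplet and brings droplets close to mitochondria. In liver, CIDEC is known from fatty liver, where it joins small droplets into larger ones, and CIDEB from the lipidation of very low density lipoprotein.

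Gene counts totalled 33225627 to 40796767 per library. STAT3 stood at 443 ± 12.2 CPM (read counts scaled to library size by the TMM method) in PTPF and 119.6 ± 10.6 CPM in STATF libraries (SD, n = 3 each), and PTPRD at 11.5 ± 1.37 CPM and 11.5 ± 0.603 CPM. PTPRD therefore did not separate the labels, and higher or lower refers only to how the libraries are labelled. Of 8 hepatocyte markers all passed the filter, and their summed level was 41951.5 to 48650.0 CPM in PTPF and 39545.8 to 40389.7 CPM in STATF libraries, with SERPINA1 and ASGR1 higher and ALB, APOA1 and TF lower in PTPF libraries. SERPINA1 made up much of this sum, at 23741 ± 2075 CPM in PTPF and 14464 ± 501 CPM in STATF libraries (SD, n = 3 each). Without it, a sum taken after the values were seen, the other 7 markers came to 19924.5 to 22602.6 CPM in PTPF and 25160.5 to 26381.9 CPM in STATF libraries, so that the order of the groups was reversed. The 6 biliary markers summed to 122 to 133.9 CPM in PTPF and 165.7 to 181.9 CPM in STATF libraries, with EPCAM at 0 counts in every library and 2 of the 4 tested, KRT19 and SOX9, lower in PTPF libraries. Among 6 adipocyte markers, which include the droplet genes PLIN1 and CIDEA, ADIPOQ had no count in any library, and LEP had 2 counts over the PTPF libraries and 0 over the STATF ones. The adipocyte list summed to 152.9 to 189.2 CPM in PTPF and 187.9 to 211.3 CPM in STATF libraries, most of it PCK1, which hepatocytes also express. The part of these marker differences in the values below was not tested, and in bulk RNA fewer cells of a type and less RNA per cell cannot be told apart.

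In PTPF libraries PLIN5 was 2.27-fold higher than in STATF ones, and PLIN4 and G0S2 were higher by smaller amounts, while PNPLA2 and CIDEC were lower. PLIN2, PLIN3, ABHD5 and HILPDA did not pass the test. The test was edgeR's quasi-likelihood test over all 17844 genes that passed the filter, and a gene passed at a Benjamini-Hochberg adjusted p under 0.05. Of the 9 members tested, 5 passed, against 21.6% of all genes. By direction, 3 members were higher, against 10.1% of all genes, and 2 lower, against 11.6%. In 7 of the 9 members the CPM values of the groups did not overlap, which was so for 35.7% of all genes. The members were chosen with earlier results of these data known, so these counts describe the list and do not test it. The median log2 fold change (PTPF over STATF) was 0.12 over the 9 members and 0.00 over all genes, and the median size of a difference, whatever its sign, was 0.30 over the members and 0.16 over all genes. With library totals as the only scaling, 28.1% of all calls were higher instead of 46.6%, and the 5 members kept their calls and directions. Whether the replicates came from separate cultures is not stated, and p-values then reflect only how far these libraries scatter, which may be technical.

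**Figure D1:**
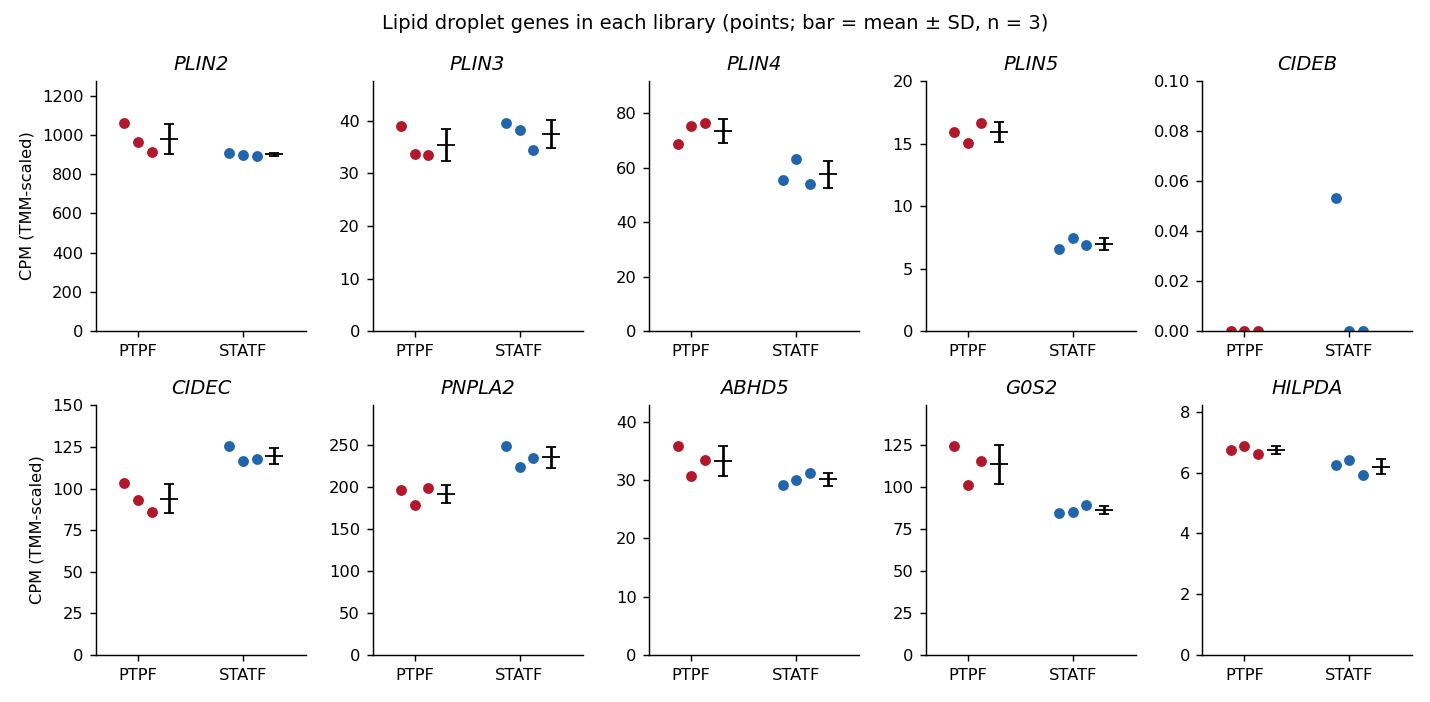
TMM-scaled read counts (CPM, y axis from 0, scaled to each gene) of the 10 genes in each PTPF library (red, left) and STATF library (blue, right), with the mean ± SD of 3 libraries beside the points except for CIDEB. PLIN5 shows the widest gap relative to its level, at 15.1 to 16.7 CPM in PTPF and 6.58 to 7.49 CPM in STATF libraries, and CIDEB is at 0 in 5 of 6 libraries.

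PLIN5 showed the largest difference among the members. This perilipin is abundant in tissues that burn fat and is present in liver. PLIN5 had 16, 15.1 and 16.7 CPM in the PTPF libraries, against 6.58, 7.49 and 6.89 CPM in the STATF ones. The groups lay far apart, and the lowest PTPF library was above every STATF one. Its log2 fold change was 1.19 (SE 0.091, 95% interval 0.999 to 1.37, edgeR adjusted p = 9.71e-11), on 247 to 554 counts per library. The exact two-sided permutation p was 0.1, the smallest that 3 against 3 libraries allow, as it was for each member whose groups did not overlap. Across the alternatives run, the log2 fold change of PLIN5 lay between 1.12 and 1.24.

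PLIN5 lies on the minus strand of chromosome 19, from 4522531 to 4535224 (GRCh38, as are the positions of the other members), with PLIN4 4066 bases downstream and LRG1, which encodes a secreted acute-phase glycoprotein, 1185 bases upstream on the same strand. LRG1 had 294.6 ± 36.8 CPM in PTPF and 144.8 ± 5.23 CPM in STATF libraries (SD, n = 3 each), and its log2 fold change was 1.02 (SE 0.072), with an edgeR adjusted p = 6.92e-10. AC011498.4, an annotated gene that spans parts of both, shares 1047 bases with PLIN5, or 21.7% of the exon bases of PLIN5, and 86 bases with LRG1. Of the exon bases of AC011498.4 itself, 62.8% belong to other genes, so its value is not separate from theirs. Its 130 counts in PTPF and 64 counts in STATF libraries gave a log2 fold change of 1.21 and an SE of 0.30 (edgeR adjusted p = 0.00347). The sources used here do not give how reads in the shared bases were assigned, and the part of the overlap in the PLIN5 and AC011498.4 values was not tested. Beyond this stretch the next genes did not pass: SEMA6B, upstream of LRG1, had a log2 fold change of 0.47 (edgeR adjusted p = 0.30), and HDGFL2, which overlaps the far end of PLIN4 by 32 exon bases, had -0.04 (edgeR adjusted p = 0.736). Per kilobase of gene length, LRG1 stood at 25.7 to 30.1 times the level of PLIN5 in PTPF libraries and 29.8 to 33.4 times in STATF ones, ranges that overlap.

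**Figure D2:**
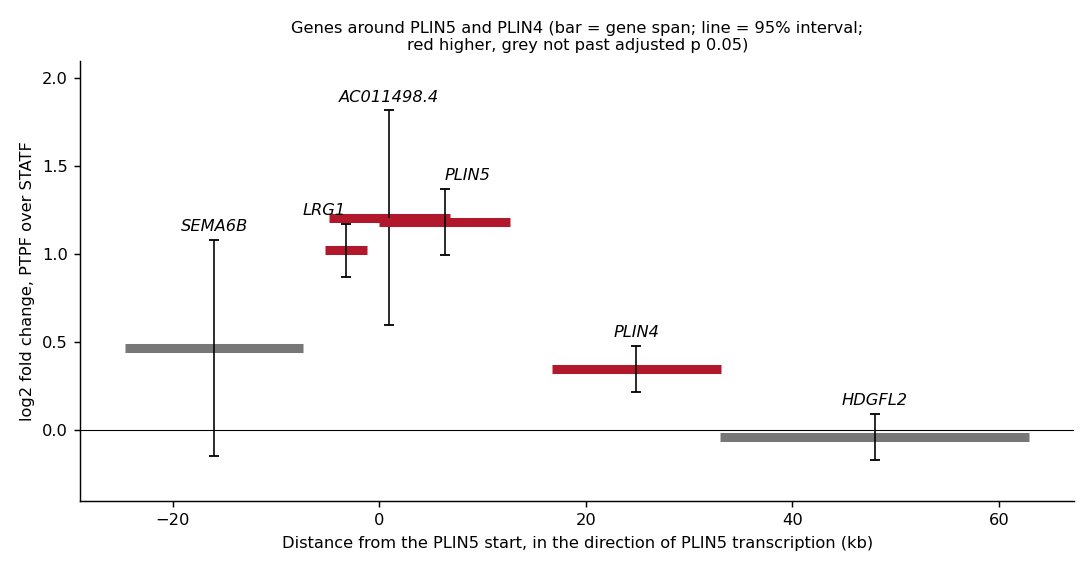
Log2 fold change (PTPF over STATF, y axis) of the genes around PLIN5 and PLIN4, placed by their distance in kilobases from the start of PLIN5 in the direction of its transcription (x axis). Thick bars span each gene and thin lines are 95% intervals: LRG1, AC011498.4, PLIN5 and PLIN4 (red) were higher at 1.02, 1.21, 1.19 and 0.35, and SEMA6B and HDGFL2 (grey) did not pass the test.

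The promoter windows of these neighbours are shown because PLIN5 and LRG1 were both higher in PTPF libraries. Each window holds 250 bases before and 50 bases after the RefSeq start (GRCh38.p14, minus strand), at chr19:4535175-4535474 for PLIN5 and chr19:4539987-4540286 for LRG1. Capitals mark matches to TTCNNNGAA, a motif that STAT proteins bind, read on both strands.
PLIN5: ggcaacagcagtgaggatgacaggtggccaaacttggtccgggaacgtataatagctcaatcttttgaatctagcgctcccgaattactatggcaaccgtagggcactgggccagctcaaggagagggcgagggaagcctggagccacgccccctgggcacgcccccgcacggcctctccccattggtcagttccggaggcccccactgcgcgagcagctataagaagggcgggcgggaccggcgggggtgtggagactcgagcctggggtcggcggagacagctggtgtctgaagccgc
LRG1: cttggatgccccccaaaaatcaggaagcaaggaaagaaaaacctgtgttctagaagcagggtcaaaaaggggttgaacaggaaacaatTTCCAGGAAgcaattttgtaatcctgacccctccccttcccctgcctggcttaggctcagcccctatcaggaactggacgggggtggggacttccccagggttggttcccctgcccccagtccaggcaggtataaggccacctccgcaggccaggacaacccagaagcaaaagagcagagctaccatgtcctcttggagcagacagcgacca
The LRG1 window held 1 match, TTCCAGGAA, that begins at base -162 from the start, and the PLIN5 window held none. This motif occurs in 7.66% of all 35116 promoter windows. RefSeq windows were found for 9 of the 10 members, 13 windows in all, and no entry for HILPDA was used. None of these 13 windows held TTCNNNGAA, or a PPAR-type direct repeat, read as the half-site AGGTCA repeated after 1 base with up to 2 mismatches, which 2.97% of all windows hold. A match is a description of letters and not a binding site, and a window without a match says nothing about the factor.

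PLIN4 (chr19:4502180-4518465, minus strand), which coats small droplets through a long amphipathic repeat, had 68.5, 75.3 and 76.5 CPM in PTPF libraries, against 55.6, 63.1 and 53.9 CPM in STATF ones. The groups did not overlap, with 68.5 CPM the lowest PTPF and 63.1 CPM the highest STATF value. Its log2 fold change was 0.35 (SE 0.064, edgeR adjusted p = 0.000145).

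PLIN2, the main droplet coat of hepatocytes and a protein that is degraded when it is not bound to fat, was the most abundant member. It lies at chr9:19108375-19149290 on the minus strand and had 1062, 966 and 912.8 CPM in PTPF libraries, against 909.3, 898.4 and 894.5 CPM in STATF ones. The groups did not overlap, by a small gap, and the PTPF libraries were more widely spread, with an SD of 75.6 CPM against 7.68 CPM in STATF libraries. The log2 fold change of 0.12 did not pass (SE 0.062, 95% interval -0.01 to 0.25, edgeR adjusted p = 0.178). PLIN3 (chr19:4838341-4867768, minus strand), a perilipin that moves between cytosol and new droplets, had 38.9, 33.6 and 33.5 CPM in PTPF libraries, against 39.6, 38.2 and 34.4 CPM in STATF ones. Its groups overlapped, and the log2 fold change was -0.08 (95% interval -0.22 to 0.06, edgeR adjusted p = 0.467). An antisense gene, AC027319.1, shares 17.9% of the exon bases of PLIN3 and had 0 counts.

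Of the 9 members with a promoter window, which leaves out HILPDA, PLIN2 was the 1 whose window (chr9:19127443-19127742, minus strand) held ACGTG. This is a form of the core of the hypoxia response element. The other form, GCGTG, was not searched, and the G0S2 window printed below holds it. The PLIN2 window is shown for its ACGTG matches, which are in capitals on either strand.
PLIN2: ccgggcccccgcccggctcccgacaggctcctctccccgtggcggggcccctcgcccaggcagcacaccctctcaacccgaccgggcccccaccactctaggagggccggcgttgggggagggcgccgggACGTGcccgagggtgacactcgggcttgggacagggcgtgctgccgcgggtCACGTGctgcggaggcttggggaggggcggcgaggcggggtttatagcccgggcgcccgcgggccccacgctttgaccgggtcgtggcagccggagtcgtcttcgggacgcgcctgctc
The window held 3 matches, of which those that begin at bases -69 and -68 from the start lie on opposite strands and overlap, while the match at base -120 stands alone. ACGTG, read on both strands, occurs in 21.4% of all windows.

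Among the perilipins, PLIN2 made up 86.3% ± 0.831 of the summed CPM per kilobase of PLIN1 to PLIN5 in PTPF libraries and 86.8% ± 0.67 in STATF ones (SD, n = 3 each). PLIN5 took 1.39%, 1.43% and 1.65% of that sum in PTPF libraries, against 0.664%, 0.759% and 0.712% in STATF ones. The PLIN5 share was thus higher in every PTPF library, although it remained a small part of the perilipin transcripts. PLIN3 took 5.63% ± 0.173 in PTPF and 6.51% ± 0.387 in STATF libraries, and PLIN4 5.09% ± 0.621 and 4.34% ± 0.342 (SD, n = 3 each).

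The lipase and its inhibitor G0S2 differed in opposite directions. PNPLA2 (chr11:818902-825573, plus strand) had 196.1, 178.9 and 198.7 CPM in PTPF libraries, against 248.3, 223.4 and 234.5 CPM in STATF ones, so that each PTPF library was below each STATF one. Its log2 fold change was -0.30 (SE 0.058, 95% interval -0.42 to -0.18, edgeR adjusted p = 0.000346). G0S2 (chr1:209675420-209676388, plus strand), a small protein that binds PNPLA2 and blocks it, had 123.9, 100.8 and 115.3 CPM in PTPF libraries, against 84.3, 84.9 and 89.2 CPM in STATF ones. All 3 PTPF libraries were higher, with a wider spread than the STATF ones. The log2 fold change of G0S2 was 0.40 (SE 0.064, 95% interval 0.26 to 0.53, edgeR adjusted p = 3.55e-05).

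Per kilobase of gene length there were 2.81, 2.5 and 2.58 G0S2 reads for each PNPLA2 read in PTPF libraries, against 1.51, 1.69 and 1.69 in STATF ones. This ratio of inhibitor to enzyme transcripts was therefore higher in all PTPF libraries, and it is a ratio of RNA, not of protein. PLIN5 per PNPLA2, on the same scale, was 0.0665 ± 0.00123 in PTPF and 0.0238 ± 0.00281 in STATF libraries (SD, n = 3 each). An antisense gene, AP006621.1, shares 10.4% of the exon bases of PNPLA2 and had 8 counts over the PTPF libraries and 5 over the STATF ones.

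The promoter windows of this enzyme and inhibitor pair, which differed in opposite directions, lie on the plus strand at chr11:818664-818963 for PNPLA2 and chr1:209675162-209675461 for G0S2, and neither held a match to any of the motifs searched, so no base is in capitals.
PNPLA2: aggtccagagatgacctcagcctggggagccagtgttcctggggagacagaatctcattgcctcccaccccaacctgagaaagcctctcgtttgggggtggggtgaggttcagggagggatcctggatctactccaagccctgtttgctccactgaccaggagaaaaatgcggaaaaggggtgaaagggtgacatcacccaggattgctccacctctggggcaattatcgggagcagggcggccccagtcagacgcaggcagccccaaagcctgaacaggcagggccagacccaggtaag
G0S2: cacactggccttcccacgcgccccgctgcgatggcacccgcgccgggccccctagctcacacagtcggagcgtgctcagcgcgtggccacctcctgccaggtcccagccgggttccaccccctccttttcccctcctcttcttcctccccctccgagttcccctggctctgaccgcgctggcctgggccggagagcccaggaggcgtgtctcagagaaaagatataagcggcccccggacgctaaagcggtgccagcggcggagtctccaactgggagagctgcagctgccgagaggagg

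ABHD5 (chr3:43690108-43734371, plus strand), the activator of PNPLA2, had 35.7, 30.7 and 33.4 CPM in PTPF libraries, against 29.1, 30.1 and 31.2 CPM in STATF ones. The groups overlapped, since PTPF replicate 2 was below STATF replicate 3. The log2 fold change of 0.14 did not pass (SE 0.067, 95% interval 0.01 to 0.28, edgeR adjusted p = 0.137), and without PTPF replicate 2 it was 0.21 and passed (edgeR adjusted p = 0.0326). Relative to PNPLA2, and per kilobase, ABHD5 stood at 0.0886 ± 0.00375 in PTPF and 0.0653 ± 0.00494 in STATF libraries (SD, n = 3 each). HILPDA (chr7:128455849-128458418, plus strand), an inhibitor of PNPLA2 that is induced by low oxygen and by fatty acids, had 6.74, 6.87 and 6.62 CPM in PTPF libraries, against 6.26, 6.41 and 5.93 CPM in STATF ones. These values lay close together without overlap, and at 216 to 267 counts per library the log2 fold change of 0.12 did not pass (95% interval -0.11 to 0.35, edgeR adjusted p = 0.504). Other annotated genes share 13.2% of the exon bases of HILPDA.

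CIDEC (chr3:9866711-9880254, minus strand), which fuses droplets, had 103.4, 92.9 and 85.8 CPM in PTPF libraries, against 125.4, 116.5 and 117.5 CPM in STATF ones. Every PTPF library was lower, and its log2 fold change was -0.35 (SE 0.062, 95% interval -0.48 to -0.22, edgeR adjusted p = 0.000113). No exon base of CIDEC is shared with another gene. Per kilobase, CIDEC stood at 0.253 ± 0.00447 of the level of PLIN2 in PTPF and 0.351 ± 0.0115 in STATF libraries (SD, n = 3 each).

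CIDEB (chr14:24305096-24311430, minus strand) was listed with 0 counts in all 3 PTPF libraries, and with 2, 0 and 0 counts in the STATF ones. No fold is given, since a count of 0 is compatible with as many as 3 counts, which is 0.0818 to 0.0919 CPM in the PTPF libraries. All of its 3198 exon bases (100%) also belong to genes on the opposite strand: 61.1% are shared with NOP9 and 39.9% with LTB4R2. NOP9 had 29.4 ± 2.83 CPM in PTPF and 32.8 ± 1.58 CPM in STATF libraries, and LTB4R2 2.94 ± 0.586 CPM and 2.81 ± 0.535 CPM (SD, n = 3 each). The sources used here do not give the strand setting or the treatment of reads that fall in several genes, and the part of the overlap in the CIDEB counts was not tested.

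**Figure D3:**
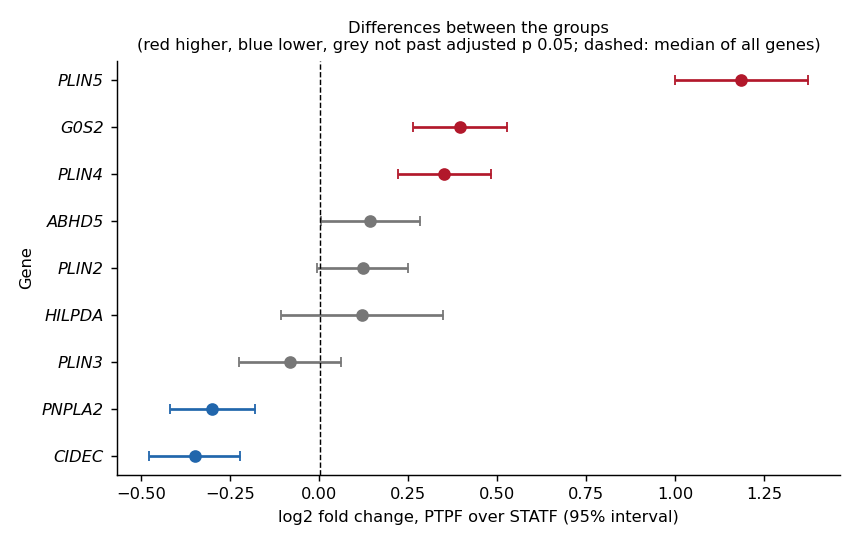
Log2 fold change of PTPF over STATF (x axis) of the 9 members tested, with 95% intervals derived from the statistic of edgeR's quasi-likelihood test. PLIN5 stands apart at 1.19, G0S2 and PLIN4 were higher at 0.40 and 0.35 (red), PNPLA2 and CIDEC were lower at -0.30 and -0.35 (blue), and the 4 others (grey) did not pass an adjusted p of 0.05.

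Divided by gene length, the mean levels over the 6 libraries ran from 184.9 CPM per kilobase for PLIN2 and 115.2 for G0S2 down to 2.38 for PLIN5. CIDEC and PNPLA2, at 55.5 CPM per kilobase each, could not be ordered, and their ranges of 44.6 to 65.1 and 46.5 to 64.6 CPM per kilobase overlapped almost fully. Below them came PLIN3 at 12.9, PLIN4 at 10.1, ABHD5 at 4.2 and HILPDA at 3.13 CPM per kilobase, with ranges that did not overlap between these neighbours in the order. The place of PLIN5 differed by label: in PTPF libraries it stood at 3.31 ± 0.166 CPM per kilobase beside HILPDA at 3.26 ± 0.0605, and in STATF libraries at 1.45 ± 0.0958 beside HILPDA at 3 ± 0.119 (SD, n = 3 each). The gene lengths include exon bases shared with other genes, 21.7% for PLIN5 and 13.2% for HILPDA. How reads there were assigned is not given, so levels as close as these in PTPF libraries may depend on it. The same limit holds where genes are compared per kilobase above.

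**Figure D4:**
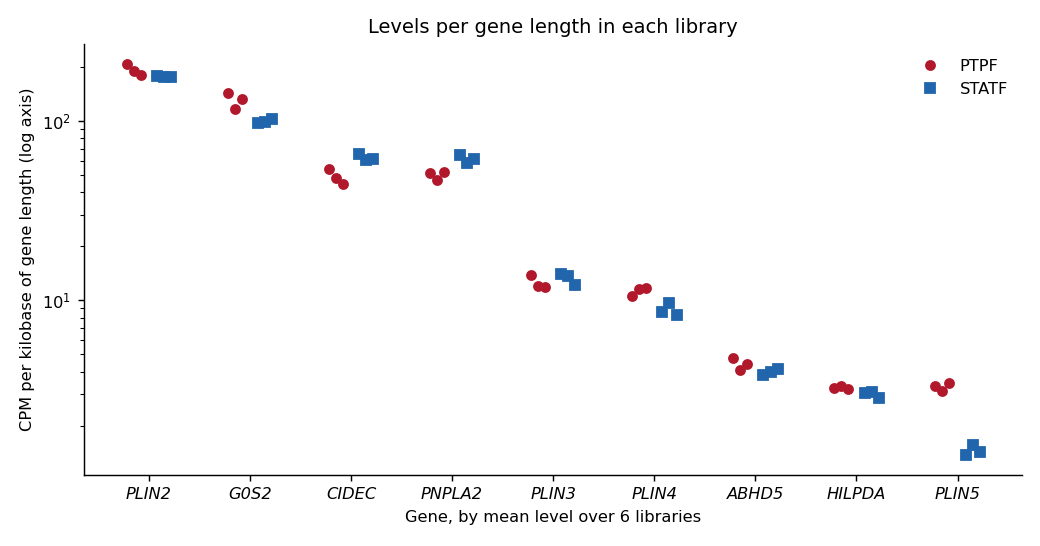
CPM per kilobase of deposited gene length (log axis) of the 9 members tested in each library, with PTPF libraries as red circles on the left and STATF libraries as blue squares on the right of each gene. PLIN2 is highest at 175.9 to 208.8 CPM per kilobase, and PLIN5 lies at the level of HILPDA in the PTPF libraries, at 3.14 to 3.47 CPM per kilobase, and below it in the STATF libraries.

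The genes beside the members were examined as context. Of 25 genes that share exon bases with a member or lie next to it within 50 kb, 16 were tested. Of these, 5 were higher, against 10.1% of all genes, 5 were lower, against 11.6%, and 6 did not pass. G0S2 was higher, while HSD11B1 (log2 fold change -0.46) and LAMB3 (-0.50) on its sides were lower. PNPLA2 was lower, as was CRACR2B (-0.82) next to it, while RPLP2 (0.23) on the other side was higher. On either side of CIDEC, TTLL3 (-0.12) and JAGN1 (-0.03) did not pass. HAUS6 next to PLIN2 was higher (0.19, edgeR adjusted p = 0.0437), and TICAM1 (-0.18) next to PLIN3 did not pass. Beside CIDEB, LTB4R (0.31) was higher and DHRS1 (-0.30) lower. ANO10, which shares 170 exon bases with ABHD5, was lower (-0.33).

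Other genes of the droplet pathway were counted over lists, here and below, that were chosen with earlier results of these data known. Their counts describe the lists and do not test them. Of 15 tested of 16 further coat and assembly genes, 5 were lower and none was higher, where 11.6% of all genes tested were lower and 10.1% higher, and the median was -0.17 on the log2 scale. METTL7B, a droplet-associated methyltransferase family protein, had 112.2 ± 8.42 CPM in PTPF and 188.3 ± 4.82 CPM in STATF libraries (SD, n = 3 each), which is -0.75 on the log2 scale (edgeR adjusted p = 1.52e-10). Its relative METTL7A (-0.33) and ACSL3, an acyl-CoA synthetase of nascent droplets (-0.26), were lower too. HSD17B13, a droplet enzyme of liver, was lower at 0.341 ± 0.0392 CPM in PTPF and 0.767 ± 0.433 CPM in STATF libraries (edgeR adjusted p = 0.042), and it lost this call in 7 of 13 alternatives, with an edgeR adjusted p = 0.42 without STATF replicate 3. Without PTPF replicate 2 or 3, or STATF replicate 1 or 3, 3 genes of this list passed instead of 5. PLIN1, the perilipin of adipocytes, had 12.5 ± 0.391 CPM in PTPF and 12.6 ± 0.854 CPM in STATF libraries.

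Of 11 tested of 12 further genes of lipid hydrolysis, 4 were lower and none was higher, beside the same 11.6% and 10.1% of all genes, and the median was -0.09 on the log2 scale. MGLL, which takes the last fatty acid off monoglyceride, had 41.1 ± 2.87 CPM in PTPF and 61.1 ± 3.83 CPM in STATF libraries (SD, n = 3 each), which is -0.57 on the log2 scale (edgeR adjusted p = 1.03e-07). The carboxylesterase CES2 (-0.26), the lysosomal regulator TFEB (-0.36) and the PNPLA2 relative PNPLA3 (-0.24) were also lower, although PNPLA3 did not pass without STATF replicate 1 (edgeR adjusted p = 0.0629). The hormone-sensitive lipase LIPE, with 7 counts in the PTPF libraries together, did not pass the filter.

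Fatty acid-responsive targets of PPAR receptors, which sense fatty acids, were mostly lower in a list that holds none of the members. Of 17 tested, 11 were lower, against 11.6% of all genes, and 2 were higher, against 10.1%. The median was -0.33 on the log2 scale. CPT1A, which lets fatty acids into mitochondria, had 209.6 ± 4.05 CPM in PTPF and 283 ± 11.7 CPM in STATF libraries (SD, n = 3 each). ANGPTL4, a secreted lipase inhibitor, had a log2 fold change of -0.55, and CYP4A11, which has a near-identical relative and is therefore uncertain, -1.52. Among 14 transcription regulators, 5 were higher and 3 lower, beside 10.1% and 11.6% of all genes, with a median of 0.11. CREB3L3 (0.93), a hepatic factor of fasting lipid metabolism, the hypoxia factor EPAS1 (0.43) and the bile acid receptor NR1H4 (0.50) were higher, and the coactivator PPARGC1A (-0.47) was lower. Of 15 hypoxia-responsive genes, 3 were higher and 2 lower, beside 10.1% and 11.6% of all genes, with a median of 0.06. On the log2 scale these included LDHA at 0.57, DDIT4 at 0.45, NDRG1 at -0.44 and ADM at -0.51. Other genes share 41.2% of the exon bases of DDIT4.

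**Figure D5:**
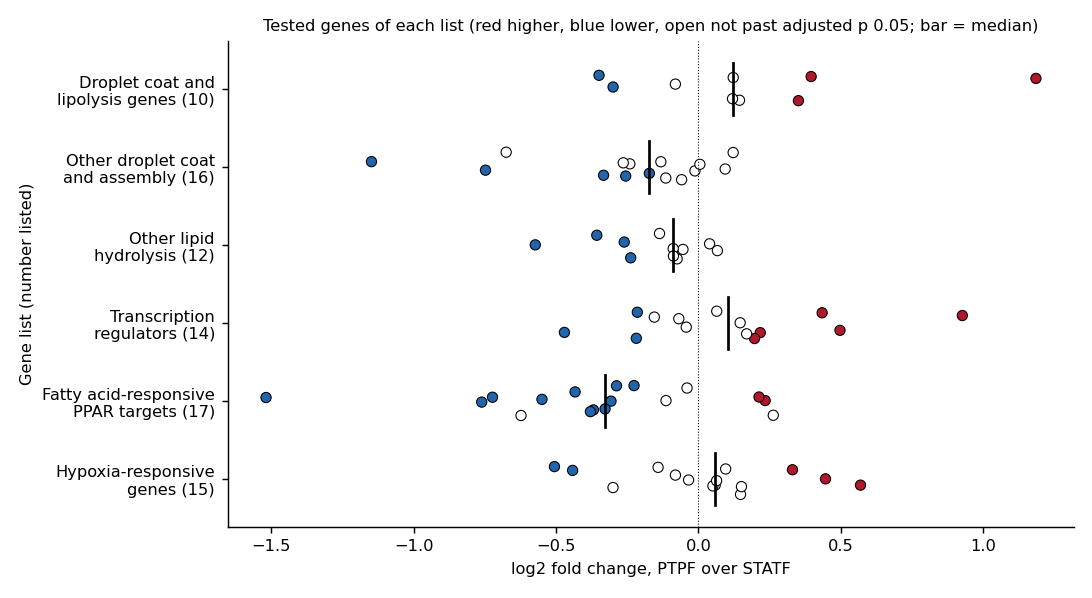
Log2 fold change of PTPF over STATF (x axis) of each tested gene in 6 gene lists (rows), with red for higher, blue for lower and open circles for genes that did not pass an adjusted p of 0.05, and a bar at each list's median. The medians are 0.12 for the droplet coat and lipolysis genes, -0.17 for other coat and assembly genes, -0.09 for other lipid hydrolysis genes, 0.11 for regulators, -0.33 for PPAR targets and 0.06 for hypoxia-responsive genes.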

How the data were processed

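The authors deposited a table of raw, unscaled read counts for each gene and library, together with gene length in bases, an other unit. Polyadenylated RNA was captured on beads and copied from random hexamers, per the labels' protocols. The submitters' processing notes list CASAVA 1.8, HISAT2 2.0.5, featureCounts 1.5.0-p3 and GRCh38. The sources used here do not give annotation release, strand setting or the handling of multi-mapping reads.

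Groups came from the titles. After filterByExpr and TMM scaling, edgeR 4.0.16's quasi-likelihood test (robust, group as the only term, R 4.3.3) was run on 17844 genes with Benjamini-Hochberg adjustment. Intervals are 95%. Floors reflect counting error alone, because duplicate PCR reads could not be removed by molecular identifiers. Permutation tests used scipy 1.17.1. Exon overlaps came from GENCODE release 29 and promoters from RefSeq. The fit was tested on simulated data. Libraries of a group differed beyond sampling noise (chi-square over its degrees of freedom, 4.01 to 10.9), and each was 1 replicate. The text names the members, STAT3 and PTPRD, tested genes that are adjacent to members or share exon bases with them, and per list up to 4 called genes with the smallest adjusted p. A gene that this rule takes is not reported here. PLIN1, LIPE, SEMA6B, DGAT2 and single marker genes were named after their values were seen. Members and lists were chosen with earlier results of these data known. Alternatives were other scalings and filters, DESeq2 1.42.0, limma-voom 3.58.1, a replicate block and leaving out each library.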

Additional observations from a re-analysis of the deposited data

How the results depend on the processing

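Of 126 values of the 9 tested members under the alternatives, 125 kept their direction and their side of the threshold, none turned round, and ABHD5 passed without PTPF replicate 2 (log2 fold change 0.21), with 0.091 to 0.21 over the 6 left-out libraries. The highest adjusted p over all alternatives was 5.4e-08 for PLIN5, 0.000994 for G0S2, 0.00491 for PLIN4, 0.00314 for CIDEC and 0.00837 for PNPLA2. With library totals as scaling, 1164 genes were higher and 28.1% of the calls, the median of all genes was -0.06, and 3 regulators were higher instead of 5. Without 1 library at a time, coat and assembly genes had 3 to 4 calls, all lower, regulators 5 to 8 in all and 1 to 2 lower (the fewest without STATF replicate 1 or 2), and PPAR targets 1 to 3 higher (the fewest without PTPF replicate 3 or STATF replicate 1). DESeq2 called 3 coat and assembly genes, all lower, DGAT2 and HSD17B13 among those lost. PNPLA3 no longer passed without STATF replicate 1 (adjusted p = 0.0629). Without division by gene length, the perilipin shares in PTPF and STATF libraries were 1.12% and 1.24% for PLIN1, 87.7% and 88.7% for PLIN2, 3.16% and 3.68% for PLIN3, and 6.61% and 5.67% for PLIN4, by construction. Correlations of deviations from the group mean were 0.03, 0.06 and 0.00 for the same replicate number. PTPF replicates 1 and 2 correlated best with the same number, and PTPF replicate 3 with another. With 3 libraries per group and correlations this small, this check cannot say whether the numbers pair the libraries. A replicate block gave 4145 calls in place of 3863 and changed no member's call. At 0 to 2 counts, CIDEB did not pass the main filter, and no value of it under the alternatives is given.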
